A study of Mus musculus with 3 samples.

Results

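The comparison set the dE3 library of mouse embryonic spinal cord, whose β-catenin was stabilised, against the wild-type (WT) library. All embryos were C57BL/6 at embryonic day 13.5. The dE3 genotype is Nestin-Cre;Ctnnb1-floxed(Ex3), in which Cre removes exon 3 of Ctnnb1 and which the labels call a gain of function. The remaining library (cKO), Nestin-Cre;Ctnnb1-floxed(Ex2-6), lost exons 2 to 6, and its values stand beside the others as a further level. Each genotype is 1 library, so no difference here has a replicate check and no p-value was computed. The number of embryos behind a library is not given. The Cre is driven by Nestin regulatory sequence, which is active in neural progenitors, so the allele changes in those cells and their progeny and the library also holds RNA of other cells. A gene entered the comparison when WT or dE3 held at least 20 estimated counts, which left 17772 of the 51826 genes in the deposited table (18074 when cKO could also bring a gene in). The highest count was exactly 20 for 158 genes just inside that threshold and 19 for 142 genes just outside it.

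β-Catenin, the protein of Ctnnb1, has a role at cell junctions, where it joins cadherins to the cytoskeleton, and a role in the nucleus, where it acts with DNA-binding proteins of the TCF/LEF family as the effector of canonical Wnt signalling. Without a Wnt signal a destruction complex of Axin, APC and kinases phosphorylates its amino-terminal part, and the marked protein is degraded. In the dorsal spinal cord Wnt proteins from the roof plate help to keep progenitors dividing and to set dorsal identity, and many direct targets of the pathway encode its own inhibitors.

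Before the gene results, 2 features of the libraries need stating. They held 32167470 (WT), 34790053 (dE3) and 33048837 (cKO) estimated counts, so sequencing depth was close. Library names carry the tag L2 for WT and dE3 and L3 for cKO. Markers of muscle, cartilage and epidermis were higher in the dE3 library. Of 29 measured skeletal muscle markers 26 were higher in dE3 than in WT, as were 16 of 17 cartilage markers and 11 of 14 epidermal markers. Summed over the list, muscle markers came to 41.0 TPM (a transcript level corrected for length and depth) in WT, 873 in dE3 and 114 in cKO, and 6 of the 31 listed genes were at 0 counts in WT against 0 in dE3. The muscle regulators Myod1 and Myog, which define the skeletal muscle lineage, stood at 7.15 and 15.8 TPM in dE3, against 0.453 and 1.07 in WT. With 1 library per genotype, the genotype and the tissue taken cannot be told apart here, and the part of these tissues in the results below was not tested. In bulk RNA fewer cells of a type and less RNA per cell cannot be told apart. Xist and the Y-linked genes Uty, Kdm5d, Ddx3y and Eif2s3y all had counts in both libraries. From scaled counts Xist in dE3 was at 1.58 of WT (1.55 to 1.60). Uty, Kdm5d, Eif2s3y and Ddx3y were at 0.696, 0.763, 0.79 and 0.884 of WT. The antisense gene Tsix had 5, 124 and 238 counts in WT, dE3 and cKO and was called higher. The mix of sexes in each library was not tested.

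The targeted gene checks the labels only in part. Ctnnb1 (ENSMUSG00000006932, chr9:120929216-120960507, plus strand, GRCm38) stood at 482 TPM in WT, 474 in dE3 and 337 in cKO. From scaled counts, dE3 was at 0.847 of WT, with a 95% interval for counting error of 0.829 to 0.866. The exon that dE3 lacks is a coding exon at chr9:120950522-120950749. It is 228 bases or 76 codons long, so its loss keeps the reading frame, and it makes up 9.73% of the coding length of 2343 bases. Its sequence is shown because it holds what the allele removes. Capitals mark codons 32 to 37, the stretch that carries phosphorylation sites for GSK3 and is recognised by the ubiquitin ligase βTrCP (GENCODE vM21 transcript sequence, 5′ to 3′).
Ctnnb1 exon 3: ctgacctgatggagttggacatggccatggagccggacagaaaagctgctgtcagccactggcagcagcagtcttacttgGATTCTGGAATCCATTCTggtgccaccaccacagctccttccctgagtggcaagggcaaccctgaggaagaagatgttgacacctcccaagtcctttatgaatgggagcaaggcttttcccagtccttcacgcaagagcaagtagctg

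The transcripts of Ctnnb1 were divided differently in the 2 libraries. Ctnnb1-201, the full-length coding transcript, was estimated at 5892, 2807 and 9189 counts in WT, dE3 and cKO. Ctnnb1-209, which is annotated as a retained intron, had 7116, 11477 and 1922 counts in WT, dE3 and cKO, or 40.9%, 71.0% and 13.8% of the gene. Ctnnb1-208, annotated for nonsense-mediated decay, had 3971, 786 and 2496 counts in WT, dE3 and cKO. Ctnnb1-214 and Ctnnb1-211 were listed at 473 and 183 counts in dE3 and at 0 in WT and in cKO. In its annotation Ctnnb1-211 holds 202 of the 228 bases of exon 3, whereas Ctnnb1-201, Ctnnb1-208, Ctnnb1-209 and Ctnnb1-214 hold the whole exon. A message that lacks exon 3 has no row of its own among these 5 transcripts, so the table does not measure the loss of the exon, and how its reads were assigned was not tested. Without Ctnnb1-209, whose counts differed most, the log2 ratio of the gene was -1.27 in place of -0.24.

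By a ratio of 2 or more with an interval that excluded 1, dE3 exceeded WT for 1162 genes (6.54%) and was below it for 647 (3.64%). The other 15963 were neither, and the middle of the whole distribution lay at a log2 ratio of 0.0053. Past 4-fold, 395 genes were higher and 183 lower. Genes that also passed 2-fold by TPM and without the transcript that differed most numbered 761 higher and 413 lower. A gene with 1 transcript was held to TPM alone, here and in the lists below. For other genes no minimum was set for the counts left, and Col4a6 passed with 1 in WT and 4 in dE3. Higher calls were commoner among genes of low level. Of the genes whose higher library was under 1 TPM, 18.1% were higher and 12.9% lower, against 2.31% and 1.09% of those at 100 TPM or more. The genes higher in dE3 summed to 8236 TPM in WT, 26115 in dE3 and 11253 in cKO, and the genes lower to 18229, 4430 and 10203. Within the 413 genes lower, the 10 largest TPM differences made up 76.9% of the summed difference, against 35.1% within the 761 higher. The sum of all genes lower includes mt-Atp6 and AY036118, which are uncertain as described below.

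**Figure D1:**
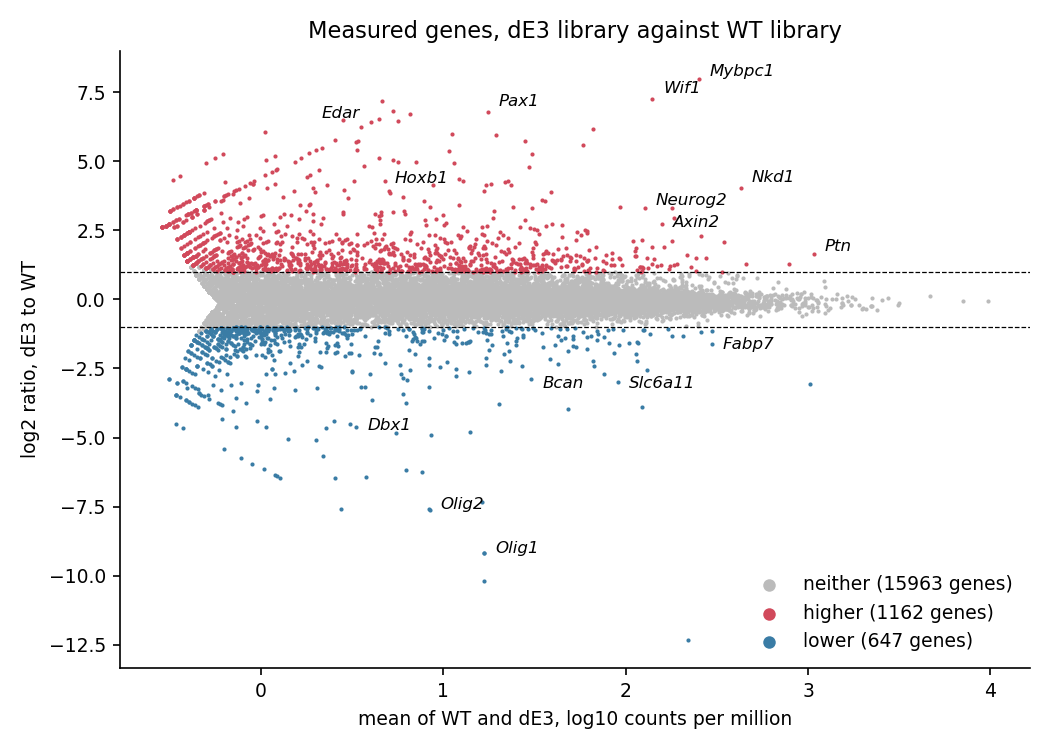
Each point is a measured gene, with the mean of WT and dE3 as log10 CPM (scaled counts) and the log2 ratio of dE3 to WT on the vertical axis. Red points are the 1162 genes called higher and blue points the 647 called lower, dashed lines mark 2-fold, and a gene at 0 in a library is drawn at the value that 3 counts give.

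Among the 761 genes that also passed these checks where they applied, the largest TPM differences belonged to a growth factor and to genes of the Wnt pathway and of muscle. Ptn encodes pleiotrophin, a secreted heparin-binding growth factor, and had 788 TPM in WT, 2510 in dE3 and 625 in cKO. From counts it was 3.13-fold higher in dE3 (3.08 to 3.19). Nkd1, an intracellular inhibitor of Wnt signals, followed with 39.1 TPM in WT, 654 in dE3 and 39.8 in cKO. Apcdd1, a membrane protein that inhibits the pathway, had 116, 500 and 130 TPM in WT, dE3 and cKO. Only dE3 was high for these 3 genes, with WT and cKO close together. Outside the pathway the next in order were Mybpc1, Neurog2, Tcf12, the pseudogene Rpl34-ps1 (which shares all of its sampled words with other genes), Col2a1 and Pam, the enzyme that amidates neuropeptides. Pam was at 59.1 TPM in WT, 221 in dE3 and 59.2 in cKO, a 3.69-fold difference from counts (3.52 to 3.86).

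Among the 21 measured Wnt feedback and target genes, 14 were higher in dE3, 0 were lower and 7 were neither. That is 66.7% of the list, against 6.54% of all measured genes, and the list median was 1.5 on the log2 scale. This list was written with earlier results of these data known, so its count is a description. Summed over its 24 members, the list came to 335, 2353 and 368 TPM in WT, dE3 and cKO.

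The secreted and intracellular inhibitors of the pathway made up most of that sum. Wif1 encodes a protein that binds Wnt ligands outside the cell and was at 1.93 TPM in WT, 304 in dE3 and 2.64 in cKO. With 58 counts against 9708 it was 153-fold higher in dE3 (118 to 201). Notum, an enzyme that strips the lipid from Wnt ligands, stood at 2.11, 204 and 5.62 TPM in WT, dE3 and cKO. Notum shares 29.9% of its sampled 50-base words with other genes, and its antisense gene Notumos was higher too (20 counts in WT, 1348 in dE3). Axin2, the scaffold of the destruction complex, was at 38.7, 201 and 31 TPM in WT, dE3 and cKO. The Dickkopf genes, which block the co-receptor LRP6, were at far lower levels. Dkk1 had 28 counts in WT and 72 in dE3 (2.34-fold higher, 1.5 to 3.77). Dkk4 had 0 counts in WT and in cKO and 21 in dE3, 6.38-fold higher than the floor of 3 counts in WT, with an interval from 4.75 upwards.

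The transcription factors of the pathway were also higher. Lef1, a partner of β-catenin on DNA, had 3.58 TPM in WT, 55.6 in dE3 and 5.09 in cKO, and was 14.8-fold higher from counts (12.6 to 17.5). Tcf7, of the same family, had 8.39, 26.8 and 11.7 TPM in WT, dE3 and cKO, but once its most different transcript was left out the log2 ratio was 0.90. Sp5, a zinc finger factor and direct target, had 50, 2096 and 96 counts in WT, dE3 and cKO. Of the 2 ubiquitin ligases that remove Frizzled receptors, Rnf43 had 16, 735 and 22 counts in WT, dE3 and cKO and was 41.9-fold higher (25.6 to 73.7). Znrf3 was already expressed in WT, at 7.83 TPM against 17.1 in dE3, and was 2.11-fold higher (1.91 to 2.34). Tnfrsf19, a receptor of the tumour necrosis factor family, had 17.9 TPM in WT, 178 in dE3 and 24.5 in cKO. Lgr6, a receptor for R-spondins, had 1.73, 4.71 and 3.09 TPM, and its log2 ratio was -0.72 with the most different transcript left out.

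Not all common readouts of the pathway were past 2-fold. Ccnd1, the cyclin D1 gene, had 34.8 TPM in WT, 62.3 in dE3 and 36.3 in cKO. Myc had 30.7, 24.4 and 29.2 TPM in the same order, and the stem cell receptor Lgr5 had 5.38, 8.65 and 4.80. Nkd2, the paralogue of Nkd1, had 10 TPM in WT, 10.8 in dE3 and 13 in cKO, so the paralogues differed in this library pair. Sp8, a relative of Sp5, had 6.87 TPM in WT, 2.87 in dE3 and 9.11 in cKO, with a ratio of 0.534 from counts, inside 2-fold. Bambi and Trabd2b were also inside 2-fold. Both other D cyclin genes were past 2-fold. Ccnd2 had 26.6 TPM in WT, 119 in dE3 and 33.0 in cKO. Ccnd3 had 11.8, 47.0 and 17.5 TPM, but a log2 ratio of 0.26 without the transcript that differed most.

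**Figure D2:**
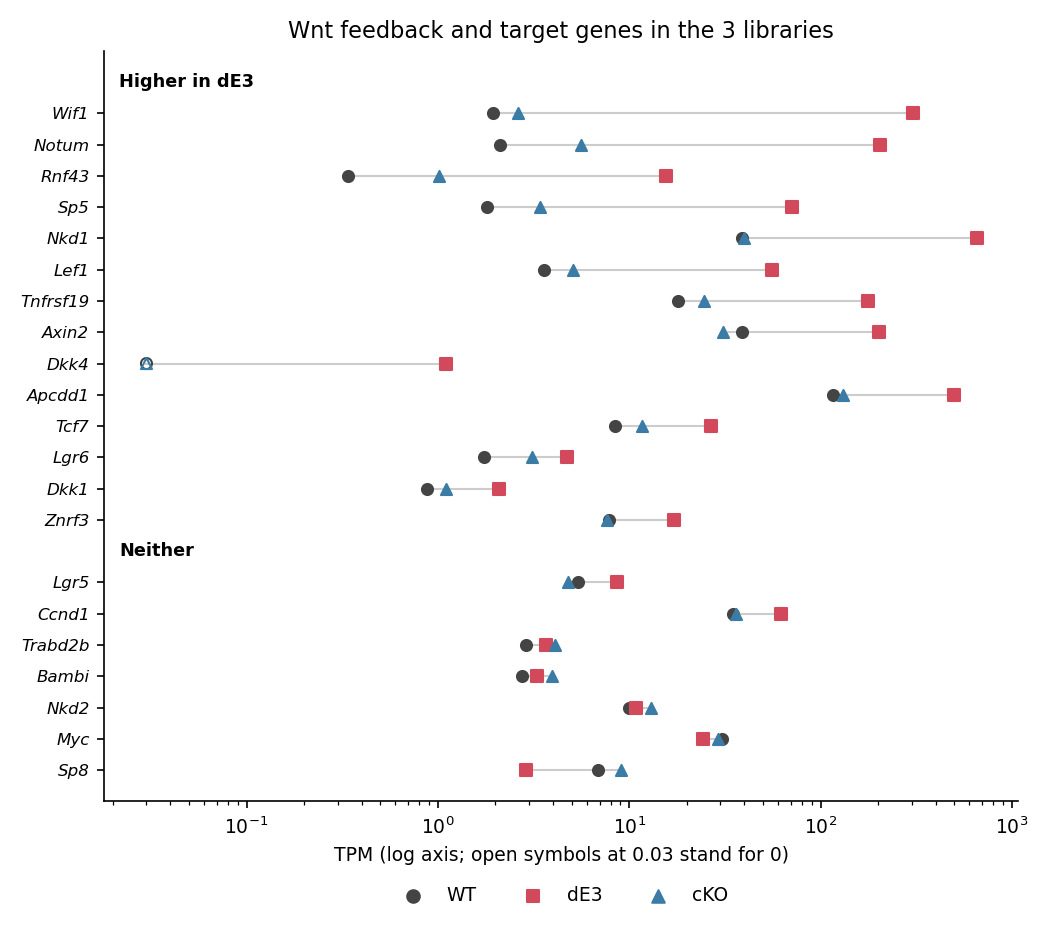
TPM of the 21 measured Wnt feedback and target genes on a log axis, with 1 symbol for each of the WT, dE3 and cKO libraries and no error bars, since each genotype is 1 library. In the 14 genes of the upper block dE3 is the highest of the 3 libraries, from Wif1 (1.93 TPM in WT, 304 in dE3) to Znrf3, while the 7 genes below were inside 2-fold from counts.

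Receptors and ligands of the pathway were divided. Of 19 Wnt receptor genes 3 were higher (15.8%, beside 6.54% of all genes) and 0 lower, and the median was 0.64. Fzd10, a Frizzled receptor of the dorsal neural tube, was the one high in dE3 alone, at 32.3, 250 and 26.2 TPM in WT, dE3 and cKO. The receptor tyrosine kinase genes Ror1 and Ror2 were lower in level and in between in cKO, with 1.83, 4.22 and 2.73 TPM for Ror1. The call of Ror2 rested on 1 transcript, without which its log2 ratio was -5.56. Of 16 ligand genes 6 were higher and 3 lower, and 1 of the 6 calls (Wnt10b) was also past 2-fold with TPM plus 0.1 and without the most different transcript. Wnt5a, a ligand of noncanonical signalling, had 15.6, 38.0 and 10.1 TPM in WT, dE3 and cKO. The 3 lower ligands, Wnt7b, Wnt1 and Wnt8b, were past 2-fold by both. With TPM plus 1 the log2 ratios of Wnt10b and Wnt8b were 0.48 and -0.47, under 2-fold. Wnt7b, made by neural progenitors, had 56.6 TPM in WT, 17.8 in dE3 and 46.2 in cKO, and its progenitor paralogue Wnt7a had 21.4, 11.4 and 20.1 without passing 2-fold. Among 14 secreted modulators Sostdc1 and Dkk2 were higher and none was lower. None of 27 genes of the β-catenin complex and its cofactors was past 2-fold in either direction, and their median was 0.03. That list holds neither Axin2, which is counted with the targets, nor the catenin gene Ctnna3, which had 325, 55 and 197 counts in WT, dE3 and cKO.

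Target promoters can hold the TCF/LEF core motif CTTTGA, which reads TCAAAG on the other strand, and windows from 250 bases before to 50 bases after RefSeq starts were searched on both strands. RefSeq windows (GRCm38.p6) were matched by symbol to 11984 measured genes, which had 15355 windows. The motif was in 14.9% of the 874 windows of genes higher in dE3, in 15.1% of the 412 windows of genes lower in dE3 and in 11.7% of the windows of the other genes. Over all windows the share was 12%. The 7-base form CTTTGAT, which contains the first and is found as ATCAAAG when read on the opposite strand, was in 3.89%, 4.13% and 2.40% of them in the same order. The shares in genes higher and in genes lower were close to each other. Of the 20 windows of 12 Wnt target genes, 5 held the motif. The 250 bases before the start are shown for 3 genes that were among the most different and hold the motif there, with the motif in capitals. All 3 were higher in dE3. Dkk1 and a window of Tnfrsf19, both higher, hold it too, and so does Dbx1, which was lower, 71 bases before its start. The windows of Mybpc1, Wif1, Nkd1, Axin2 and Pax1, all higher, have no match. A match describes these letters only and does not show that a factor binds.
Sp5, chr2:70474673-70474922, plus strand: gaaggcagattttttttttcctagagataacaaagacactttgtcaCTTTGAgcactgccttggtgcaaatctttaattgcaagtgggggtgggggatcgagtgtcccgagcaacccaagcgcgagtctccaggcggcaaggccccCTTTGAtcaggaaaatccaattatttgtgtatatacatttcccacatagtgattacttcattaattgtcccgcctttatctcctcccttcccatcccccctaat
Lef1, an internal start, chr3:131156044-131156293, plus strand: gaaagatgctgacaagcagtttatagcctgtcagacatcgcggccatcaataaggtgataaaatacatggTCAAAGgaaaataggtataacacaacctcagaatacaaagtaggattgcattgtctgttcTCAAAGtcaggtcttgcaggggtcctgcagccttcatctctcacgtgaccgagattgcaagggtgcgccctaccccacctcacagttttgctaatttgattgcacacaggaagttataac
Edar, chr10:58675697-58675946, minus strand: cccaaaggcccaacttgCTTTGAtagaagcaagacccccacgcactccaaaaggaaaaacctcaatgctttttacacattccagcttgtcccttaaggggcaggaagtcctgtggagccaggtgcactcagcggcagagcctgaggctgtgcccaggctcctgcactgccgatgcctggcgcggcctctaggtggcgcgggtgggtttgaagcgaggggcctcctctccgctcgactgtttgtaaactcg

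Sp5 carries the motif 204 and 104 bases before its start and Lef1 180 and 120 bases before this internal start, whereas the other 3 windows of Lef1 have none. In Edar it lies 233 bases before the start. Edar encodes the ectodysplasin receptor of skin appendage placodes and had 4, 390 and 8 counts in WT, dE3 and cKO. From counts Edar was 88.9-fold higher in dE3 (34.4 to 328). Of 13 measured genes of the Edar pathway and placodes, 6 were higher (46.2%, beside 6.54% of all genes) and 0 lower. They include Sostdc1, at 5.77 TPM in WT, 25 in dE3 and 5.25 in cKO, and Krt17, with 0, 50 and 11 counts in WT, dE3 and cKO. Other ectodermal genes of the list were level, with Eda at 4.49 and 4.32 TPM and Edaradd at 1.26 and 1.36 in WT and dE3. The epidermis list, higher in dE3 as well, summed to 18.2 TPM in WT, 47.0 in dE3 and 21.9 in cKO, and its part in the Edar values was not tested.

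Progenitor identity genes of the dorsal cord went in both directions. Of 19 measured dorsal progenitor genes 8 were higher in dE3 (42.1%) and 5 lower (26.3%), with a median of 0.65. Over all genes 6.54% were higher and 3.64% lower. The muscle segment homeobox genes, which respond to roof plate signals, were all higher. Msx1 had 17.9 TPM in WT, 60.8 in dE3 and 12.9 in cKO, Msx2 had 2.15, 8.83 and 1.40, and Msx3 had 26.6, 67.6 and 12. The cKO library was the lowest of the 3 for each of them. With its most different transcript left out Msx2 kept 6 and 14 counts in WT and dE3, a log2 ratio of 1.09 that was not called. Zic genes, zinc finger factors of dorsal midline progenitors, were higher in part. Zic5 had 10.6 TPM in WT, 47.6 in dE3 and 9.61 in cKO, and Zic2 had 52.0, 147 and 55.3. Zic1, the most abundant member, had 243 and 389 TPM in WT and dE3, below 2-fold. Prdm13, a regulator of dorsal inhibitory neurons, had 8.92, 47.5 and 5.64 TPM in WT, dE3 and cKO.

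The paired box genes Pax3 and Pax7, which both mark dorsal progenitors, were on opposite sides. Pax3 had 14.4 TPM in WT, 41.3 in dE3 and 10.3 in cKO, but with the most different transcript left out its log2 ratio was 0.05. Pax7 had 3.27 TPM in WT, 0.725 in dE3 and 3.79 in cKO, and was 3.88-fold lower from counts (2.90 to 5.25). Both genes are also used by muscle precursors, and muscle markers were higher in dE3. The homeobox genes Gsx1 and Gsx2, which mark progenitors of late dorsal interneurons, were lower. Gsx1 had 149, 54 and 166 counts in WT, dE3 and cKO, and Gsx2 had 55, 6 and 41. Atoh1, the factor of the most dorsal progenitors, had 38, 10 and 10 counts in WT, dE3 and cKO, so it was as low in cKO as in dE3.

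Intermediate and ventral progenitor genes were lower or level. None of 15 was higher, 3 were lower (20%, beside 3.64% of all genes), and the median was -0.56. Dbx1 and Dbx2 mark progenitors in the middle of the dorsoventral axis. Dbx1 had 204, 9 and 147 counts in WT, dE3 and cKO, 24.9-fold lower in dE3 than in WT (12.8 to 55.1). Dbx2 had 153, 8 and 163. Olig2, which specifies progenitors of motor neurons and oligodendrocytes, had 532, 0 and 452 counts in WT, dE3 and cKO. With dE3 set to the floor of 3 counts it was 194-fold lower, with an interval from 158 upwards. The other 12 measured genes were inside 2-fold from counts, although 13 of the 15 lay below a log2 ratio of 0. Nkx2-2, of the most ventral neuron progenitors, had 17.4 TPM in WT, 12.8 in dE3 and 16.2 in cKO. With its most different transcript left out the log2 ratio of Nkx2-2 was -1.996, past 2-fold. Nkx6-1, which overlaps the Olig2 domain, had 21.3, 14.7 and 26.5 TPM in WT, dE3 and cKO. The floor plate genes Shh (9.72, 6.67 and 13.4 TPM) and Foxa2 (5.16, 4.55 and 6.51 TPM) were also within 2-fold.

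Of the neurogenic factors, Neurog2 differed most. This proneural gene had 25.5 TPM in WT, 259 in dE3 and 18.2 in cKO, and was 9.99-fold higher from counts (9.26 to 10.8). Nhlh1, a factor of newly formed neurons, had 40.1 TPM in WT, 130 in dE3 and 41.9 in cKO. Tcf12, which encodes an E protein that pairs with proneural factors, had 167, 383 and 148 TPM in WT, dE3 and cKO. These 3 genes were high in dE3 alone. Their relatives were not past 2-fold, with Neurog1 at 4.12 and 5.55 TPM in WT and dE3, Nhlh2 at 84.2 and 122, and Neurod1 at 32.3 and 29.7. Over the 25 proneural genes measured, 2 were higher and 2 lower, and the median was 0.04. That is 8% in each direction, beside 6.54% higher and 3.64% lower over all genes.

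**Figure D3:**
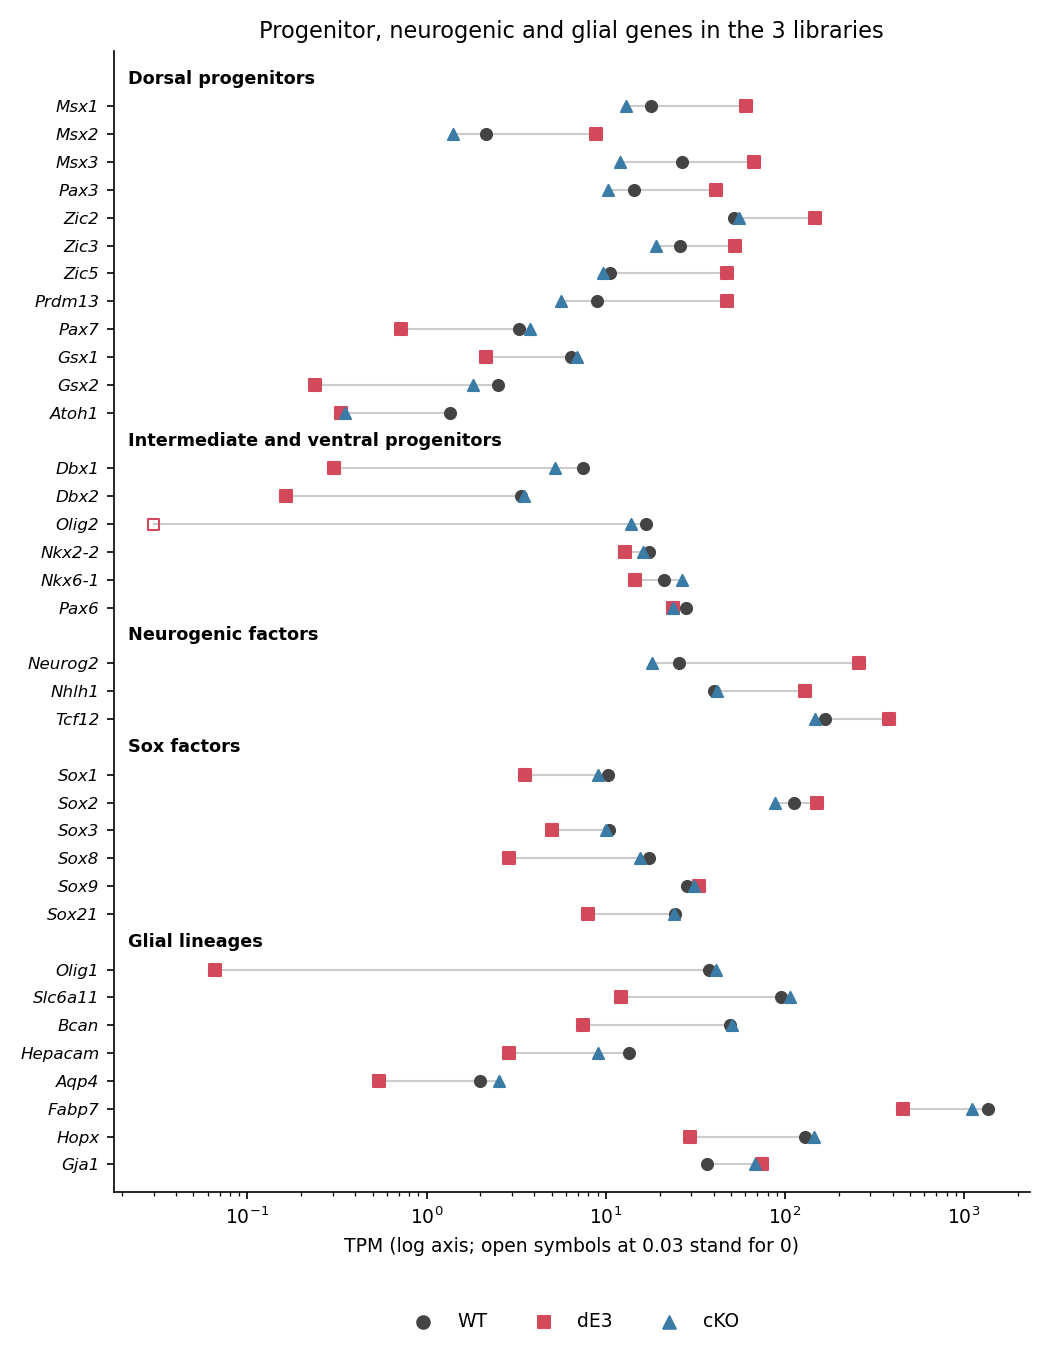
TPM on a log axis in the WT, dE3 and cKO libraries, 1 symbol each, for progenitor, neurogenic, Sox and glial genes; an open symbol stands for 0. The dE3 symbol is the rightmost for the genes from Msx1 to Prdm13 and for Neurog2, and far to the left for Olig1, Olig2, Dbx1 and Dbx2, where WT and cKO lie close together.

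Sox genes, transcription factors of the HMG box family, were never higher. Of 17 measured members 4 were lower (23.5%, beside 3.64% of all genes), Sox1, Sox3, Sox8 and Sox21. Sox1 and Sox3 keep progenitors undifferentiated together with Sox2. Sox1 had 10.2 TPM in WT, 3.54 in dE3 and 9.05 in cKO, and Sox3 had 10.4, 4.99 and 10.1. Sox2 itself had 112 TPM in WT, 152 in dE3 and 87.9 in cKO, so the 3 members of this group were not alike. Sox21 had 24.3, 7.96 and 24.0 TPM. Sox8, of the gliogenic group, had 17.3 TPM in WT, 2.88 in dE3 and 15.5 in cKO, while its relatives Sox9 (28.6, 33.0 and 31.2 TPM) and Sox10 (17.0, 15.6 and 30.4 TPM) were not past 2-fold. Markers of radial glia as a whole had a median of -0.07, with 6 of 21 lower (28.6%) and 1 higher (4.76%). The common markers Nes (97.4 TPM in WT and 104 in dE3) and Vim (395 and 669) were among the 14 that were neither.

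The astrocyte list held the largest share of genes lower in dE3 among the neural lists. Of 25 measured members 12 were lower and 1 was higher, with a median of -0.86, against 3.64% of all genes lower. Slc6a11, a GABA transporter of astrocytes, had 95.7 TPM in WT, 12.2 in dE3 and 107 in cKO. Bcan, which encodes the matrix proteoglycan brevican, had 49.4, 7.44 and 50.9 TPM and was 7.45-fold lower in dE3 (6.53 to 8.54). Hepacam, a glial adhesion gene, had 13.4 TPM in WT, 2.90 in dE3 and 9.11 in cKO. Aqp4, the water channel of astrocyte end feet, was low in all libraries, with 132, 39 and 174 counts in WT, dE3 and cKO. The dE3 library was the lowest of the 3 for each of these 4. With the most different transcript left out, Slc6a11 and Hepacam kept at most 11 counts in a library, and their log2 ratios of -2.94 and -1.59 were not called.

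The most abundant of the genes lower on this list was Fabp7. Fabp7, the fatty acid binding protein gene of radial glia and early astrocytes, had 1361 TPM in WT, 454 in dE3 and 1101 in cKO. Without Fabp7 the list summed to 1380 TPM in WT, 982 in dE3 and 1525 in cKO. Dbi, which encodes an acyl-CoA binding protein, had 444, 165 and 419 TPM, and Sparcl1, a secreted matrix protein of astrocytes, had 366, 168 and 395. Aldoc and Aldh1l1, metabolic enzymes used as astrocyte markers, were 2.56-fold (2.40 to 2.72) and 2.52-fold lower (2.32 to 2.73). Ednrb, the endothelin receptor of radial glia, had 85.8, 27.6 and 85.1 TPM in WT, dE3 and cKO. The glutamate transporter genes were not past 2-fold and went in different directions, with Slc1a3 at 166 and 118 TPM and Slc1a2 at 76.4 and 136 in WT and dE3. The one member higher was Gja1, the connexin 43 gene, with 36.6 TPM in WT, 74.6 in dE3 and 67.7 in cKO. Gja1 is expressed by mesenchyme too, and it was about as high in cKO as in dE3.

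Channel and carrier families were called in both directions. Kcnj10, the inward rectifier Kir4.1, had 10.7 TPM in WT, 1.78 in dE3 and 9.24 in cKO, 6.11-fold lower in dE3 (5.08 to 7.38), and its partner Kcnj16 had counts of 62 (WT) and 32 (dE3) and was not past 2-fold by TPM. Over 73 potassium channel genes 5 were lower and 5 higher, 6.85% of them in each direction. Slc25a18, a mitochondrial glutamate carrier, had 17.6, 4.04 and 18.2 TPM in WT, dE3 and cKO. Slc6a9, a glycine transporter of glia, had 30.2, 10.6 and 32.9 TPM, and shares 24.9% of its words with other genes. Among 269 solute carrier genes 17 were lower and 16 higher, 6.32% and 5.95% of them, beside 3.64% lower and 6.54% higher over all genes.

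Of 19 measured genes of the oligodendrocyte lineage 4 were lower (21.05%, beside 3.64% of all genes) and 0 were higher. Olig1 and Olig2 were among those lower. Olig1, which acts early in the lineage, had 1064, 2 and 1200 counts in WT, dE3 and cKO, a 584-fold difference (161 to 4825). Pdgfra and Mbp were not past 2-fold, with Pdgfra at 17.1 TPM in WT, 26.6 in dE3 and 26.4 in cKO and Mbp at 28.4, 24.1 and 39.2. Pdgfra is also a marker of mesenchyme, and Mbp is also made by Schwann cells. The nuclear factor I genes, which promote gliogenesis, were above WT without passing 2-fold, with Nfia at 22.5 and 30.7 TPM and Nfib at 98.9 and 150 in WT and dE3.

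Pan-neuronal, motor neuron and synaptic vesicle genes differed little. None of 26 pan-neuronal genes, 17 motor neuron genes or 25 synaptic vesicle genes was past 2-fold, and 24, 15 and 23 of them lay below 0, with medians of -0.35, -0.40 and -0.36. Of 16 transmitter genes 3 were lower (18.75%) and 1 higher. Of 21 dorsal neuron transcription factors 4 were lower (19.05%) and 0 higher, and of 18 ventral ones 0 were lower and 1 higher. Over all genes 3.64% were lower and 6.54% higher. By TPM and without the most different transcript, 3 transmitter calls and 2 dorsal calls among those lower held as well. Peptide transmitters were lower in 4 of 19 cases, Adcyap1, Cartpt, Calcb and Crh, and higher in none, and the call of Calcb did not hold without its most different transcript, where 2 counts in WT and 1 in dE3 were left. Cartpt had 26.5 TPM in WT, 12 in dE3 and 23.9 in cKO, and Adcyap1 had 28.1, 12.2 and 23.1. The most abundant peptide genes were level, with Npy at 409 TPM in WT, 470 in dE3 and 358 in cKO. Lmx1b, which dorsal horn excitatory neurons need, had 96.0 TPM in WT, 45.2 in dE3 and 87.0 in cKO. Its companion in those neurons, Tlx3, had 93.1, 53 and 85.8 TPM and did not pass 2-fold.

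Axon guidance genes of the midline were among those called in both directions. Robo3, the receptor that lets commissural axons reach and cross the floor plate, had 83.9 TPM in WT, 242 in dE3 and 56.5 in cKO, 2.79-fold higher from counts (2.70 to 2.89). Ntn1, the attractant netrin 1 made by progenitors and floor plate, had 168 TPM in WT, 73.7 in dE3 and 196 in cKO, 2.26-fold lower (2.19 to 2.34). The netrin receptor Dcc had 72.8, 140 and 67.9 TPM, and the repellent Slit1 had 136, 68.4 and 134, both just inside 2-fold by counts. Spon1, which encodes the floor plate protein F-spondin, had 103 TPM in WT, 41.5 in dE3 and 111 in cKO. Of the 19 Slit, Robo and netrin genes measured, 4 were higher (21.05%) and 1 lower (5.26%), beside 6.54% and 3.64% of all genes. By TPM and without the most different transcript, 2 of the 4 higher calls and the 1 lower call held as well.

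Genes of cell division and cell cycle inhibitors both lay above WT. All 26 S phase genes and all 24 G2 and M phase genes lay above 0, with medians of 0.60 and 0.84. Past 2-fold were 4 and 6 of them, 15.4% and 25%, beside 6.54% of all genes. By TPM and without the most different transcript, 0 of the 4 S phase calls and 5 of the 6 G2 and M phase calls held as well. Top2a, a topoisomerase of dividing cells, had 44.6, 87.1 and 39.2 TPM in WT, dE3 and cKO, below the threshold, and Birc5, the survivin gene, had 8.87, 29.6 and 15.7. The cell cycle inhibitors were all above 0 too, and 3 of 13 were higher (23.1%). Gadd45a, a stress-induced growth arrest gene, had 17.7 TPM in WT, 103 in dE3 and 22.8 in cKO, and Cdkn1a, the p21 gene, had 22.4, 70.5 and 24.1. Other p53 targets were mostly level, with 3 of 21 higher (14.3%, beside 6.54% of all genes), 0 lower and a median of 0.03. Mdm2 had 54.6 TPM in WT and 58.8 in dE3, and Bax had 102 in both.

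The BMP and Hedgehog pathways held genes higher and none lower. Of 28 BMP and TGF-β genes 8 were higher (28.6%, beside 6.54% of all genes), with a median of 0.34. Besides the Msx genes they include the BMP antagonist Grem1, at 5.96 TPM in WT, 19.7 in dE3 and 5.26 in cKO, and Tgfb3, at 4.86, 13.1 and 8.09. Bmp4, a ligand of the roof plate and of mesenchyme, had 53, 159 and 117 counts in WT, dE3 and cKO, and its call rested on 1 transcript. The immediate BMP targets Id1 (73.1 and 51.3 TPM in WT and dE3) and Id3 (84.9 and 166) went apart, both within 2-fold from counts. Of 14 Hedgehog genes 5 were higher (35.7%). Gli3, the repressor of the pathway, had 7.02 TPM in WT, 18.4 in dE3 and 6.41 in cKO, Gli2 had 6.43, 14.5 and 8.86, and the target gene Gli1 had 7.08, 17.5 and 11.9. Ptch1, another target, had 40.8, 48.8 and 44.5 TPM and was not past 2-fold. Of 21 Notch genes 2 were higher (9.52%), among them Hes5 at 57.9, 134 and 65.3 TPM, but with its most different transcript left out the log2 ratio was 0.81. Of 22 FGF genes 1 was higher (4.55%) and 2 were lower (9.09%, beside 3.64% of all genes). The Notch and FGF shares of genes higher are near that of all genes.

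Genes of position along the body axis were called higher in part. Of 37 Hox genes 33 were neither higher nor lower and 4 were higher (10.8%, beside 6.54% of all genes), and the median was 0.03. Hoxb1, a hindbrain and early neural Hox gene, had 2.19 TPM in WT, 42 in dE3 and 0.855 in cKO, and was 17.5-fold higher from counts (13.5 to 23.1). Its neighbours Hoxb2 (83.8 and 98.8 TPM in WT and dE3) and Hoxb3 (330 and 359) were level. The other 3 Hox genes higher were of the posterior end of the clusters, Hoxc13, Hoxd12 and Hoxd13. Hoxc13 had 150, 390 and 183 counts in WT, dE3 and cKO, and Hoxd12 and Hoxd13 were at 3.79 TPM or less. The most abundant Hox gene, Hoxb9, had 835, 846 and 747 TPM in WT, dE3 and cKO. Of 12 measured hindbrain and midbrain genes 4 were higher (Egr2, Emx2, Hoxb1 and Otx1), and the call of Otx1 did not hold without its most different transcript, where 1 count was left in each library. Of 5 measured tailbud genes 2 were higher (T and Tbx6) and 0 lower, and neither call held without the most different transcript, where at most 9 counts were left. Emx2, a gene of the forebrain, had 0, 61 and 5 counts in WT, dE3 and cKO. Otx2, a marker of the forebrain and midbrain, had 0 counts in all 3 libraries.

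**Figure D4:**
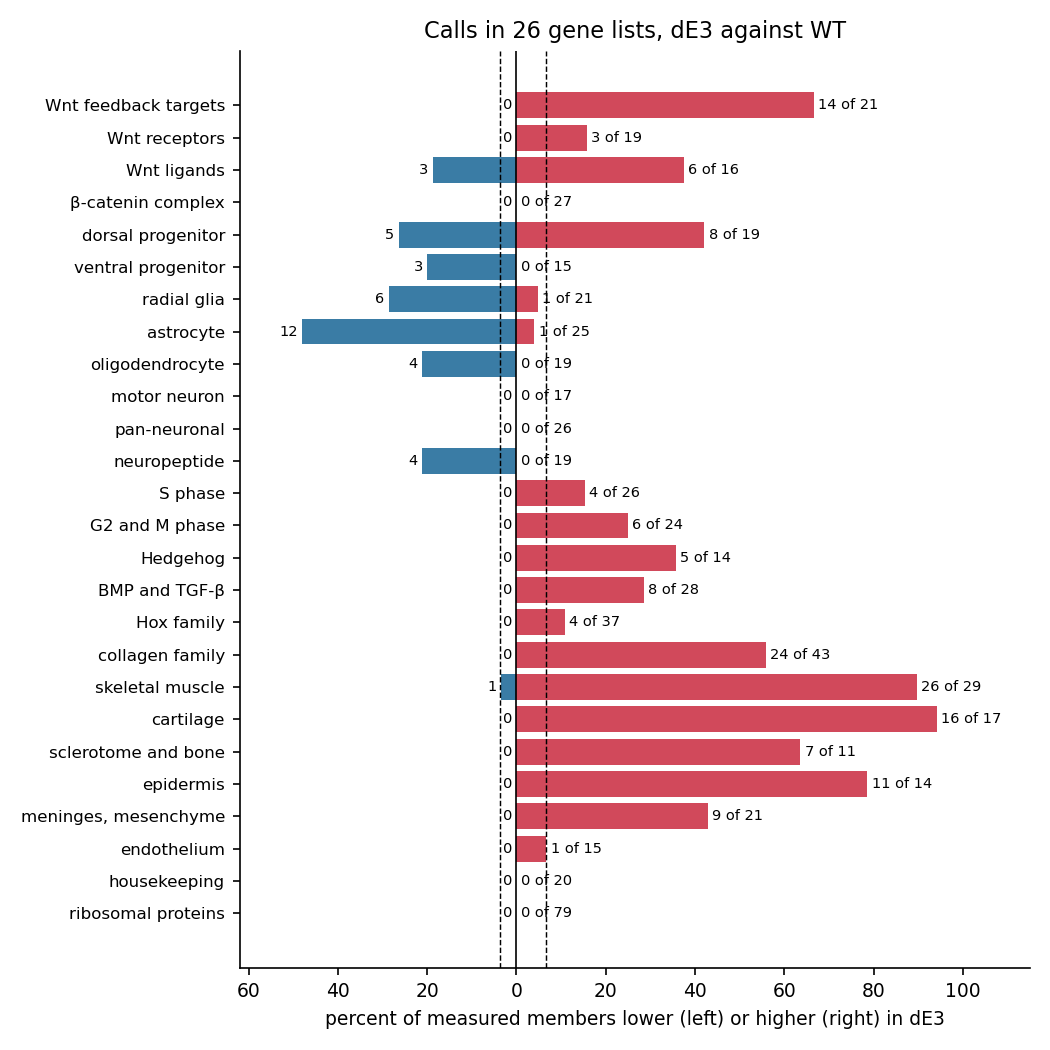
Percent of measured members called higher (right, red) or lower (left, blue) in dE3 against WT for 26 gene lists and families, with counts printed beside the bars. Dashed lines mark the shares over all measured genes, 6.54% higher and 3.64% lower; cartilage (16 of 17), muscle (26 of 29), epidermis (11 of 14) and Wnt feedback targets (14 of 21) reach farthest to the right and the astrocyte list (12 of 25) farthest to the left.

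Cartilage (94.1% of members higher), skeletal muscle (89.7%) and epidermis (78.6%) had the highest shares of genes higher among all lists of 10 or more measured genes. Mybpc1, a myosin binding protein of slow muscle, had 63, 17497 and 95 counts in WT, dE3 and cKO, and was 253-fold higher (198 to 330). It did not follow the other muscle genes in cKO. Acta1, skeletal muscle actin, had 23, 771 and 260 counts in WT, dE3 and cKO, and the myosin gene Myh3 had 80, 1548 and 356, so that cKO lay between WT and dE3. With its most different transcript left out Acta1 kept 3 and 9 counts in WT and dE3, a log2 ratio of 1.45 that was not called. Without Mybpc1 the muscle list summed to 38.3 TPM in WT, 384 in dE3 and 111 in cKO. Tnni1, slow troponin I, had 0, 248 and 37 counts in WT, dE3 and cKO. In cartilage Col2a1, the main collagen, had 51.2 TPM in WT, 229 in dE3 and 126 in cKO, and Acan, the aggrecan gene, had 0.335, 22.6 and 7.85. Pax1, of the sclerotome that forms vertebrae, had 10, 1217 and 81 counts in WT, dE3 and cKO, and the osteoblast regulator Runx2 had 48, 538 and 75.

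**Figure D5:**
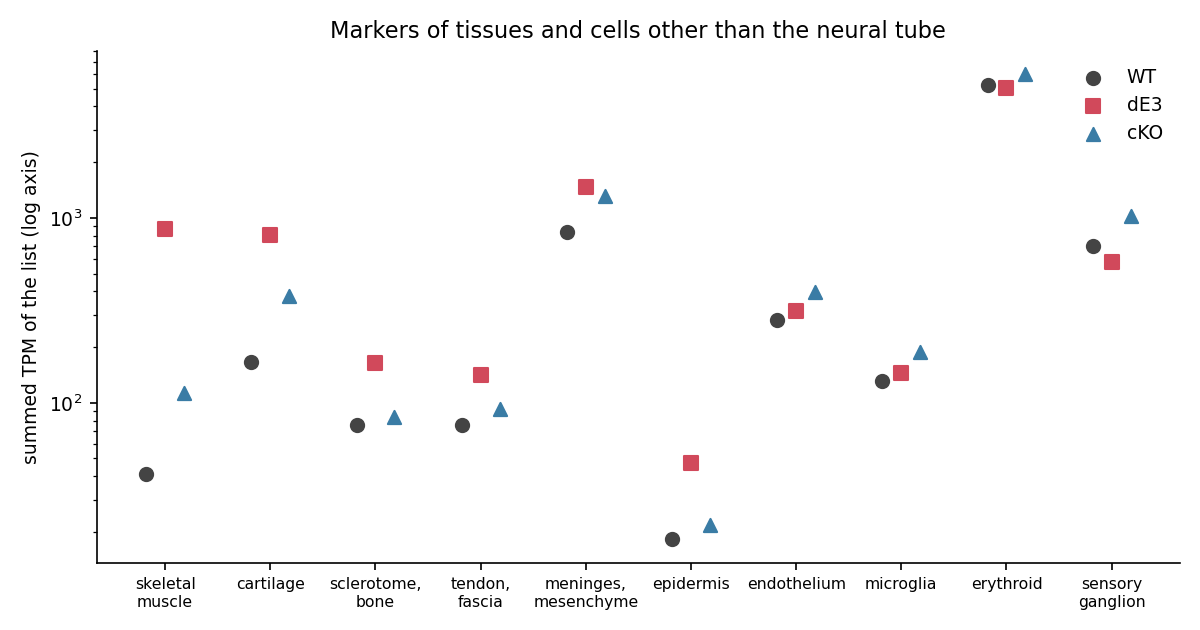
Summed TPM of 10 marker lists on a log axis in the WT, dE3 and cKO libraries, 1 symbol each. Muscle (41.0 TPM in WT, 873 in dE3, 114 in cKO) and cartilage (165, 808 and 377) are highest in dE3 with cKO in between, whereas the endothelial (280, 313 and 396) and microglial (132, 145 and 189) sums are highest in cKO.

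Not every tissue beside the neural tube was higher. Of 15 endothelial genes 1 was higher (6.67%, beside 6.54% of all genes) and 0 lower, and of 17 sensory ganglion genes 0 passed 2-fold. Of 16 microglial genes 2 were higher (Itgam and Tmem119) and 0 lower, and 0 of the 2 calls also held by TPM and without the most different transcript. The Itgam entry counted there had 20, 99 and 20 counts in WT, dE3 and cKO. A second Itgam entry, outside that list, had 68, 0 and 62 and was called lower. These entries share 68.1% and 79% of their words with other genes, and how reads were divided between them was not tested. Mesenchymal and meningeal genes were higher in 9 of 21 cases and lower in none. Twist1, a mesenchymal factor, had 6.50 TPM in WT, 50.3 in dE3 and 10.2 in cKO, while the abundant fibroblast collagens Col1a1 (58.8, 112 and 149 TPM) and Col3a1 (112, 218 and 262 TPM) were highest in cKO. Of 17 genes of barrier vessels 6 were higher and 1 lower, and the 6 include the Wnt targets Apcdd1, Lef1 and Tnfrsf19. Cldn5, the tight junction claudin, had 67.7 TPM in WT, 43.5 in dE3 and 90.7 in cKO, and the transporter Mfsd2a had 36.6, 24.9 and 29.0. Plvap, a marker of leaky vessels, had 7.84, 22.1 and 11.7 TPM.

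The collagen family held 24 of 43 measured members higher (55.8%, beside 6.54% of all genes) and 0 lower, with a median of 1.30. Among the collagens higher in dE3, some were above WT in cKO as well, such as Col9a1, a cartilage gene, at 1.93 TPM in WT, 79.0 in dE3 and 26.5 in cKO. Col6a4 was not above WT in cKO and had 62, 1215 and 29 counts in WT, dE3 and cKO, and was 17.9-fold higher (13.8 to 23.4). Col23a1, a transmembrane collagen, had 7.48, 77.1 and 13.4 TPM in WT, dE3 and cKO. The basement membrane chains Col4a5 (15.5, 54.1 and 20.4 TPM) and Col4a6 (4.06, 21.1 and 5.42 TPM) were higher, while the common chains Col4a1 (91.8, 100 and 148 TPM) and Col4a2 (57.2, 70.1 and 108 TPM) were level between WT and dE3. With its most different transcript left out Col4a6 kept 1 and 4 counts in WT and dE3, a log2 ratio of 1.87 that was not called.

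Some genes lower in dE3 have near-identical copies, to which the counting could assign the same reads. The mitochondrial gene mt-Atp6 had 58541, 7742 and 6819 counts in WT, dE3 and cKO and shares all of its sampled words with other genes, as does the noncoding RNA AY036118, with 14006, 3 and 4 counts. These 2 are uncertain, and both were as low in cKO as in dE3. Of the genes lower, 28.6% shared at least 20% of their words with another gene and 10.7% were pseudogenes, against 14.4% and 3.63% of all measured genes. Among the genes higher the shares were 14.9% and 4.30%. The protocadherin Pcdhb21, a neuronal adhesion gene of a clustered family, had 339, 13 and 375 counts in WT, dE3 and cKO and shares 12.6% of its words.

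At the level of transcripts more features differed than at the level of genes. Of 45642 measured transcripts 6236 were higher in dE3 (13.7%) and 5029 lower (11.0%). Among 10653 genes whose own ratio lay between 0.8 and its inverse, 1133 had a transcript called higher and another called lower. The 8 genes with the most counts behind such an exchange were Apc2, Ebf3, Macf1, Chd3, Ogt, Eif5, Midn and Eif4g1. In Ebf3, a neuronal transcription factor, ENSMUST00000169486 had 32, 11618 and 2397 counts in WT, dE3 and cKO, while ENSMUST00000033378 had 12145, 404 and 6098. In Eif4g1, a translation initiation factor, ENSMUST00000115457 had 65, 5791 and 69 counts in WT, dE3 and cKO, and ENSMUST00000073840 had 10388, 1759 and 12365. Estimated counts divide shared reads between overlapping transcripts, and with 1 library per genotype the spread of that division is not known.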

How the data were processed

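RNA of whole embryonic spinal cord was sequenced in 3 libraries, 1 per genotype. Per the labels' protocols, Trizol was used for extraction and a VAHTS mRNA-seq kit for library construction. CASAVA, the aligner Bowtie2 2.3.2 and the genome build GRCm38.p6 are listed in the submitters' processing notes. Which program made the estimates, from which annotation release and with which strand setting, is not given in the sources used here. The authors deposited estimated counts and TPM for 51826 genes and 128622 transcripts, and each gene's count equals the sum of its transcripts. The estimated counts are whole numbers as deposited. Gene types, exons and sequences came from GENCODE vM21, which held 99.6% of the gene IDs, and promoter windows from RefSeq (GRCm38.p6), matched by symbol.

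Counts were scaled with TMM factors (edgeR 4.0.16 in R 4.3.3) and compared in Python 3.11.15. The dE3 to WT ratio has an exact (Clopper-Pearson) 95% interval from the binomial share of the 2 counts (scipy 1.17.1). It covers counting error only, since the reads carry no molecular identifiers, so that copies of 1 molecule are counted apart, and since the counts are estimates. A gene was called at a ratio of 2 or more, or its inverse, with an interval that excluded 1. A library at 0 was set to a floor of 3 counts. With 1 library per genotype there is no test, and the design planned none. A gene was said to share sequence by the percent of its sampled 50-base words (1 word in 16) found in another gene. The script was tested on simulated counts.

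The members and gene lists were chosen with earlier results of these data known. The rule for named genes took the 12 genes in each direction with the largest TPM difference and with the interval farthest from 1, Ctnnb1, all Wnt targets, up to 6 called members and the most abundant member of each list, genes at 0 in 1 library and 100 or more counts in the other, and 8 genes with transcripts called both ways. Not all genes it selects are named, and some are not reported here. Members that were inside 2-fold, Notumos, Rpl34-ps1, mt-Atp6 and AY036118 were named after their values were seen. Alternatives were another scaling (total counts, DESeq2 1.42.0 size factors), TPM with a pseudocount of 0.1 or 1, other count minimums, folds and floors, and leaving out the most different transcript or genes with shared sequence.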

Additional observations from a re-analysis of the deposited data

How the results depend on the processing

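Total-count scaling, DESeq2 size factors, TPM plus 0.1 and a floor of 1 count left the counts of genes higher in dE3 and of genes lower in dE3 within 1.5 times of 1162 and 647. With TPM plus 1 they were 641 and 255, with a minimum of 100 counts 632 and 237, at 4-fold 395 and 183, and at 1.5-fold 2036 and 1411. Genes lower numbered 1151 with a minimum of 1 count and 1202 without the most different transcript. The transcripts higher in dE3 and the transcripts lower in dE3 were 3811 and 2837 with TPM plus 1, 2874 and 2193 with a minimum of 100 counts, and 3107 and 2376 at 4-fold, and transcripts lower were 7571 at 1.5-fold. The Wnt targets higher numbered 10 to 16 over the alternatives run. Of 77 lists and families, 46 had more members higher than lower, and 26 at 4-fold. The share of windows with the motif among genes higher was 3.89% for the 7-base form. Over 180 named genes and 11 alternatives, 1821 of 1953 values kept their call, 90 lost the call, 31 gained it and 11 changed direction. Direction was compared only for genes called in the main setting or in the alternative. A gene called in neither is among the 1821 whatever its direction. All 11 changed without their most different transcript, to log2 ratios of 2.09 for Apc2, -0.13 for Bmp4 and Otx1, 1.23 for Chd3, 1.06 for Ebf3, -0.72 for Itgam, Lgr6 and Tmem119, -1.02 for Midn, -5.56 for Ror2 and 1.56 for Uty. For 5 of these 11 fewer than 20 counts were left in both libraries, and Ctnnb1 became -1.27. That alternative drops a transcript by construction, and the cause of the other differences was not tested. A gene with 1 transcript kept its counts there. The count minimums of 1 and 100 and the removal of genes with shared sequence only change which genes enter. Their 180, 163 and 170 values among the 1821 were therefore the same by construction. A ratio of 1.5 could not lose a call. No paired analysis was possible because each genotype is 1 library. Depth limits genes near 20 counts most, where the intervals are widest.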
